A study of Mus musculus with 12 samples.

Results

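The response of Sub1-knockout splenic B cells to 72 h of stimulation was measured with 6 one-colour arrays, 3 of stimulated and 3 of resting knockout cells, out of 12 in the series. The arrays were chosen by their labels alone. The knockout mice carried B1-8hi, floxed Sub1 alleles on both chromosomes (Sub1fl/fl) and Mb1-Cre. B1-8hi is a heavy chain gene knocked into the immunoglobulin locus, and it confers binding to the hapten NP. Mb1-Cre is a recombinase knocked into the Cd79a gene and active from early B cell development. Resting cells are labelled naive and received no differentiation stimulus. Stimulated cells were cultured for 72 h with CD40 ligand at 0.2 ng/mL, the polymer antigen NP-ficoll at 0.01 ng/mL and 3 cytokines, IL-2 at 100 U/mL, IL-4 at 5 ng/mL and IL-5 at 1.5 ng/mL. The other 6 arrays hold resting and stimulated cells of control mice with B1-8hi and Sub1fl/fl but no Cre. They shared the fit and are given only where the knockout response is set against theirs. Both knockout groups carry the floxed alleles and Cre, so the stimulated and resting knockout cells differ, per the labels, in stimulation and culture. Age is not given in the sources used here, nor is it stated whether replicates are separate animals, so the p-values reflect only how far these samples differ, a spread that may be technical.

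Sub1 encodes PC4, a chromatin protein and transcriptional coactivator that binds single-stranded DNA. A resting B cell held in quiescence enters the cell cycle when its antigen receptor, CD40 and cytokine receptors are engaged. IL-2, IL-4 and IL-5 signal through JAK kinases and STAT factors, whose early targets include feedback inhibitors of the SOCS family. Some of the dividing cells then silence the mature B cell program and, under the transcription factors IRF4, Blimp-1 (Prdm1) and XBP1, build the secretory machinery of a plasma cell.

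Each level is the log2 of an intensity divided by the 75th percentile of its array, so that 0 lies at that percentile, and a change is the stimulated minus the resting mean. The test covered probes that the scanner software found well above background throughout at least 1 of the 4 groups of 3, which favours genes that are bright in one group. The share of spots well above background was 40.5%, 48.1% and 76.6% on the 3 resting knockout arrays and 64.5%, 42.6% and 76.8% on the 3 stimulated ones. In each group replicates 1 and 2 lay on slide 1 and replicate 3, the highest of each triplet, on slide 2. Over all features, arrays correlated at 0.947 to 0.958 within the resting and 0.953 to 0.969 within the stimulated group, and at 0.899 to 0.945 between them, the highest for the 2 arrays of slide 2. The level of Sub1 was 5.37, 5.80 and 5.77 in resting and 6.72, 6.87 and 6.92 in stimulated knockout arrays, and the groups did not overlap. Sub1 rose by 1.19 (SE 0.19, n = 3 and 3, limma adjusted p = 0.00179), a call lost in 2 of 26 other settings, while a dimmer second probe of the gene changed by -0.02. Control arrays had a mean Sub1 level of 6.03 ± 0.04 (SD, n = 3) at rest and 8.05 ± 0.22 (SD, n = 3) after stimulation. The deleted exons are not given in the sources used here, so this probe does not check the knockout label. Cd79a, the host gene of Mb1-Cre, averaged 3.01 at rest and 2.58 after stimulation (limma adjusted p = 0.283).

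Stimulation changed 3692 of 22,981 features in the knockout cells at a limma adjusted p under 0.05, which is 16.1% of them. Of these, 2498 rose (10.9% of all features) and 1194 fell (5.20%). Every count of list members below is to be read beside these shares of 10.9% and 5.20%. The named genes among them were 1772 that rose and 725 that fell. A change of at least 2-fold was called in 1597 features that rose and 901 that fell, of at least 8-fold in 131 and 115, and of at least 32-fold in 10 and 15. These are measured sizes, and those of at least 32-fold include levels near background. Among the falls, Sirpb1b, Ifitm6 and Try4 measured 73.9-fold, 39.2-fold and 35.8-fold. As no stimulated array was well above background, they are bounded only at 21.1-fold, 12.4-fold and 16.7-fold. Among the rises, Gzmb, Drc1 and Gzmc were each well above background on 1 resting array. Which direction is more numerous at this size is therefore uncertain. The 3 stimulated and 3 resting arrays did not overlap in 33.7% of all features and in 3680 of the 3692 called ones. The median change of all features was 0.10. The balance of directions depended on the scaling. Of the called features 67.7% rose with the main scaling, 52.2% with quantile normalization and 36.3% with the percentile taken over spots detected on all arrays. The last setting moved the median of all features to -0.23. The total was 2410 without knockout stimulated replicate 1, 2446 without knockout resting replicate 1 and 2454 without knockout resting replicate 2, each over 1.5 times below the main count.

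**Figure D1:**
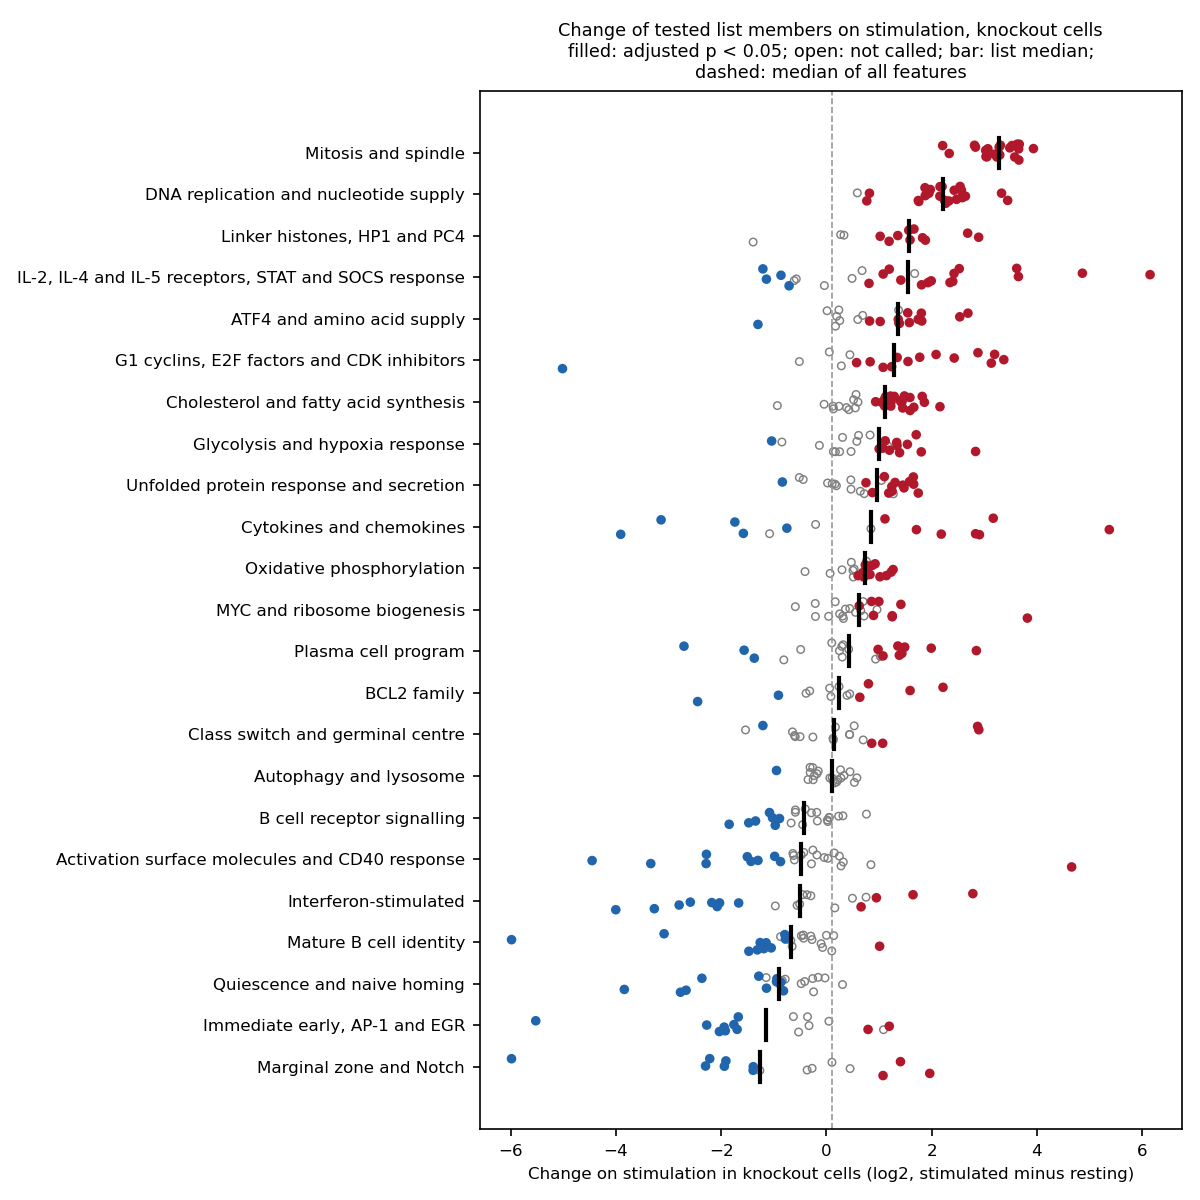
Change on stimulation in knockout cells (log2, stimulated minus resting) of each tested member of 23 gene lists, ordered by list median. Filled points passed a limma adjusted p of 0.05, open points did not, black bars are list medians and the dashed line is the median of all features (0.10). The medians ran from 3.28 for mitosis and spindle genes to -1.27 for marginal zone and Notch genes.

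The genes of mitosis gave the most uniform rise. Of 25 spindle, kinetochore and mitotic kinase genes 21 were tested, and 21 of these 21 rose, against 10.9% of all features, with changes between 2.21 and 3.93 and a median of 3.28. Aurkb, Ttk, Cenpf and Ncapg did not pass the filter. Cdk1, the kinase that drives entry into mitosis, had levels of -1.67, -0.85 and -0.59 in resting replicates 1, 2 and 3 and of 3.01, 2.81 and 2.87 in stimulated ones. Its stimulated arrays all lay above the resting ones, of which 2 were well above background. The change of Cdk1 was 3.93 (SE 0.35, limma adjusted p = 6.2e-05), a 15.3-fold rise. Birc5, the survivin subunit of the chromosomal passenger complex, rose from 2.97 ± 0.31 to 6.63 ± 0.02 (SD, n = 3 each). Plk1, a mitotic kinase, rose by 3.66, and Cdc20, an activator of the anaphase-promoting complex, by 3.65. On slide 1 the list median was 3.39 and on slide 2 it was 3.08. The control median for the same genes was 3.53, and none of them passed the interaction test at a limma adjusted p of 0.05. The count stayed at 21 of 21 without any 1 of the 12 arrays.

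DNA replication followed the same direction. Of 24 tested genes for replication and nucleotide supply 23 rose, with a median of 2.22 and slide medians of 2.31 and 2.09. Rrm2, a subunit of the ribonucleotide reductase that makes deoxynucleotides, stood at 2.05, 2.50 and 2.47 in resting and at 5.86, 5.69 and 5.79 in stimulated arrays. All stimulated arrays exceeded all resting ones by over 3 log2 units, and the change was 3.44 (SE 0.27, limma adjusted p = 3.53e-05). Mcm10, an initiation factor of replication forks, rose by 3.33. Uhrf1, which couples DNA methylation to replication, rose by 2.64, and Pole, the catalytic subunit of polymerase epsilon, by 2.58. Tyms did not pass the filter.

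Among 18 tested G1 cyclins, E2F factors and CDK inhibitors, 13 rose and 1 fell, with a median of 1.29. E2f8 and E2f7, the repressors that close the E2F wave in S phase, rose by 3.37 and 3.13. Ccna2, the cyclin of S phase, stood at 0.48, 0.79 and 1.00 at rest and at 4.22, 3.85 and 3.79 after stimulation. Its groups lay far apart, with a change of 3.20 (SE 0.30, limma adjusted p = 8.57e-05). The D-type cyclins, which bind CDK4 and CDK6, did not move together. Ccnd2 rose from 3.01 to 5.09, whereas Ccnd3 stood at 4.98 and 5.43 without a call (limma adjusted p = 0.165). Ccnd1 fell from 1.81, 2.01 and 2.26 to -2.97, -3.50 and -2.50. These groups did not overlap, the change of -5.02 (SE 0.58, limma adjusted p = 0.000268) was the only call downward in the list, and Ccnd1 was well above background on 1 of the 3 stimulated arrays. The inhibitor gene Cdkn1b had a change of -0.52 (limma adjusted p = 0.066), while Cdkn2c and Cdkn1a rose by 2.43 and 1.55.

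Promoters of some rising cell cycle genes are shown as examples of short letters whose shares differ between the mitotic and the replication lists, as counted below. The windows are the 120 bases before the RefSeq transcription start on the gene's strand in the mouse build GRCm38.p6, and RefSeq promoters were found for 9870 of the 12,295 tested named genes. Capitals mark CCAAT, the letters bound by NF-Y, TTTGAA, the core of the cell cycle homology region (CHR), or TTCCCGC, an E2F-like site, on either strand. The first 3 belong to mitotic genes and the last 2 to replication genes. Mitotic windows were picked for holding CCAAT and TTTGAA, and replication windows for holding CCAAT and TTCCCGC. The contrast among the printed windows therefore follows from the choice.
Cdk1, minus strand, chr10:69352913-69353032: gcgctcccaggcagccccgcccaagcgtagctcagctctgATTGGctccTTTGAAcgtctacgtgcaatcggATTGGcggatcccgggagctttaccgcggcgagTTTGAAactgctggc
Cdc20, minus strand, chr4:118437344-118437463: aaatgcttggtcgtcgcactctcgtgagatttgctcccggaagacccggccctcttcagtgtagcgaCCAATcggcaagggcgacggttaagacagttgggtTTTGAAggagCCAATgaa
Ube2c, plus strand, chr2:164769809-164769928: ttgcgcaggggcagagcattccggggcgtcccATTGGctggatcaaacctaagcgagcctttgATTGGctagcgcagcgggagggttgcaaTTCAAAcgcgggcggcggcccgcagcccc
Uhrf1, plus strand, chr17:56303217-56303336: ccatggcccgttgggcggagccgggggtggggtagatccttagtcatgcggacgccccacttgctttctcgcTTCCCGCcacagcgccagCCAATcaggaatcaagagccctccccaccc
Prim1, plus strand, chr10:128015095-128015214: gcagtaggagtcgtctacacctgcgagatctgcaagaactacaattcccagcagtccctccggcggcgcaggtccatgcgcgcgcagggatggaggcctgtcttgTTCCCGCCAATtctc
In these windows the CHR-like letters of Cdc20 and Ube2c begin 18 and 29 bases before the start, and those of Cdk1 at 71 and 15 bases. The E2F-like letters of Uhrf1 and Prim1 begin 48 and 15 bases before it, and in Prim1 they share 1 base with CCAAT.

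Over windows of 300 bases, from 250 before to 50 after the start, TTTGAA was found in 13 of 19 mitosis promoters (68.4%), in 12.9% of tested genes and in 18.1% of all 27,025 promoters. TTCCCGC was found in 11 of 19 replication promoters (57.9%), in 0 of the 19 mitosis promoters and in 8.02% of tested genes. CCAAT was frequent in both, in 16 of 19 (84.2%) and 14 of 19 (73.7%), beside 39.1% of tested genes. Other lists described below held it as often. It was in 20 of 22 unfolded protein response (90.9%), 18 of 21 cholesterol (85.7%) and 10 of 13 linker histone promoters (76.9%). The MYC list held it in 3 of 17 (17.6%). Among genes that rose, TTCCCGC was present in 13.6% of 1407 promoters, and among genes that fell in 3.40% of 559. The E-box letters CACGTG, which MYC binds, were held by 9.59% of the rising and 8.05% of the falling genes, beside 9.83% of tested genes. They were in 5 of 17 promoters (29.4%) of the MYC and ribosome biogenesis list, but were not particular to it. Among lists described below, autophagy and lysosome promoters held them in 6 of 16 (37.5%). Dendritic cell promoters held them in 4 of 8, and class switch and germinal centre promoters in 4 of 15. Mitosis and replication promoters held them in 0 of 19 each. These matches are counts of letters and not of bound sites.

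**Figure D2:**
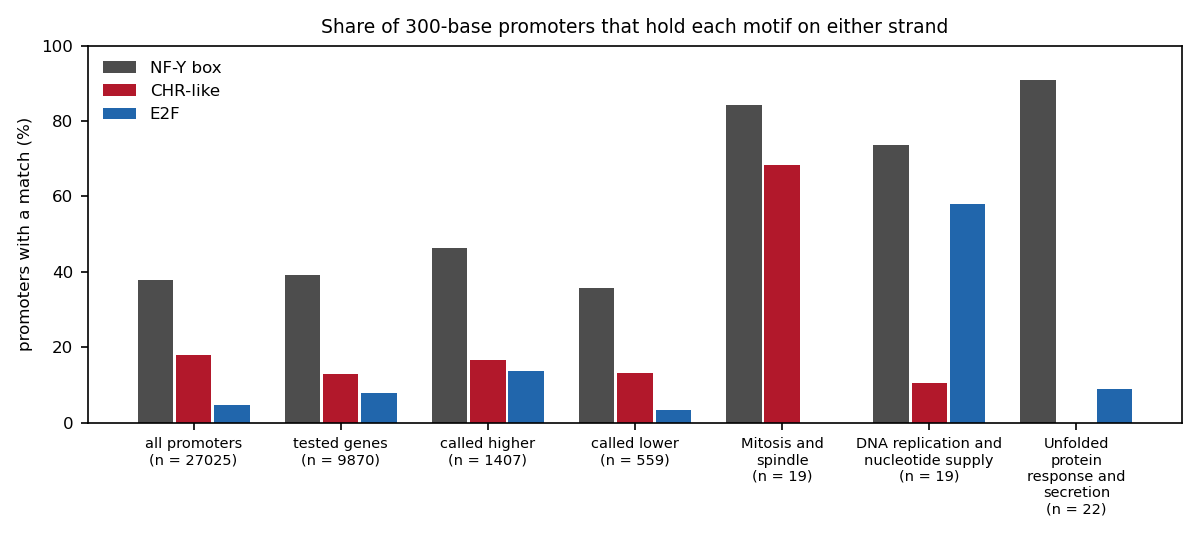
Share of promoters of 300 bases (%, bars) that hold the letters CCAAT (NF-Y box), TTTGAA (CHR-like) or TTCCCGC (E2F) on either strand, for all RefSeq mouse promoters, tested genes, genes called higher or lower on stimulation in knockout cells, and 3 gene lists, with the number of promoters in brackets. The CHR-like bar is highest for mitosis (68.4%) and the E2F bar for DNA replication (57.9%).

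Genes of the cytokine receptors and their feedback moved most among the signalling lists. Of 26 tested genes for the receptors of IL-2, IL-4 and IL-5, STAT factors, SOCS proteins and targets, 15 rose and 4 fell, with a median of 1.55 and slide medians of 1.74 and 1.07. Cish, a STAT5-induced feedback inhibitor, stood at -0.98, -0.73 and -1.36 at rest, with 2 of the 3 arrays well above background, and at 5.37, 5.22 and 4.79 after stimulation. Its groups lay about 6 log2 units apart, and the change of 6.15 (SE 0.33, limma adjusted p = 5.76e-06) was 71.0-fold. Socs2 rose by 4.86, from -0.75, -0.28 and -0.41 to 4.39, 4.83 and 3.93, and Socs1 by 3.62. Il2ra, the high-affinity subunit of the IL-2 receptor, stood at -0.65, -0.37 and -0.07 at rest and at 4.26, 4.47 and 4.16 after stimulation. Its 25.3-fold rise (change 4.66, SE 0.25, limma adjusted p = 5.76e-06) went with a rise of Il2rb, the beta subunit, by 3.65. Il4ra rose by 2.52 and Il5ra by 0.81, whereas Il2rg, the gamma chain that the IL-2 and IL-4 receptors share, fell by 1.14. Stat5a rose by 1.08 and Stat6, the IL-4 factor, had a change of -0.57 without a call. The 4 that fell were Il2rg, Jak1, Jak3 and Bcl6. The count of falling members was 2 without knockout resting replicate 3, knockout stimulated replicate 1 or knockout stimulated replicate 2, and 0 with median scaling.

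Part of the plasma cell program rose. Of 21 tested genes 8 rose and 3 fell, against 10.9% and 5.20% of all features, with a median of 0.42. The control median was 1.82, and 1 member, Jchain, passed the interaction test. Prdm1, which encodes the plasma cell repressor Blimp-1, stood at -0.94, 0.08 and -0.76 at rest and at 2.25, 2.33 and 2.36 after stimulation. Its groups did not overlap and the change was 2.85 (SE 0.26, limma adjusted p = 8.27e-05). Xbp1, the factor that drives secretory expansion, rose from 5.44 ± 0.38 to 7.43 ± 0.14 (SD, n = 3 each), and Irf4 from 2.86 to 4.25. Jchain, the joining chain of polymeric antibodies, fell from 6.87, 7.24 and 6.84 to 4.09, 3.51 and 5.23. All its stimulated arrays lay below all resting ones, by 3.26 on slide 1 and 1.61 on slide 2, and the change was -2.71 (SE 0.44, limma adjusted p = 0.00201). Cd93, a receptor of long-lived plasma cells, and Cacna1s fell by 1.57 and 1.37. Sdc1, which encodes CD138, had a mean level of -0.68 at rest and of -0.39 after stimulation and was not called (limma adjusted p = 0.78).

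The endoplasmic reticulum genes rose in smaller steps. Of 26 tested genes of the unfolded protein response and secretion, 13 rose and 1 fell, with a median of 0.96, slide medians of 0.91 and 0.84 and a control median of 1.96, and no member passed the interaction test. Manf, a secreted stress-response factor, stood at 2.70, 3.17 and 2.78 at rest and at 4.51, 4.68 and 4.70 after stimulation. The groups were separate, with a change of 1.74 (SE 0.21, limma adjusted p = 0.000415). Spcs2, of the signal peptidase, Sdf2l1 and the chaperone gene Hsp90b1 rose by 1.66, 1.65 and 1.58. Hspa5, the gene of the chaperone BiP, had a change of 0.64 (limma adjusted p = 0.0526), and Herpud1 fell by 0.84. Promoters of this list often held the endoplasmic reticulum stress element, CCAAT and CCACG with 9 free bases between them, which contains CCAAT and was searched after the data had been seen. Shown as examples with the element in capitals are 120 bases before the start of 2 genes of the list that rose.
Hsp90b1, minus strand, chr10:86705445-86705564: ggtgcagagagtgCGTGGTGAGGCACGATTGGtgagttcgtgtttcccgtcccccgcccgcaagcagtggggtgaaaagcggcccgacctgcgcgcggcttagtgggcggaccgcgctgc
Pdia6, plus strand, chr12:17266469-17266588: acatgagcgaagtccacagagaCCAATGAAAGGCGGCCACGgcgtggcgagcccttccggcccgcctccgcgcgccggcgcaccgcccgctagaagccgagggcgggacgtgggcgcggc
The element was present in 8 of 22 promoters of the list (36.4%), in 0.152% of tested genes and in 35 of 27,025 promoters (0.130%). It begins 98 bases before the start in Pdia6 and lies on the opposite strand in Hsp90b1. The shorter letters TGACGTG, which resemble an ATF6 site, were in 2 of the 22 (9.09%) and in 2.76% of tested genes.

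Amino acid and sterol supply rose as well. Of 21 tested ATF4 and amino acid genes 12 rose and 1 fell, with a median of 1.36. Slc7a5, a transporter of large neutral amino acids, rose by 2.69, from a mean level of -1.02 to 1.67. Psat1 and Phgdh, enzymes of serine synthesis, rose by 2.53 and 1.81. Ddit4, an inhibitor of mTORC1, fell by 1.30. Of 31 tested genes of cholesterol and fatty acid synthesis 20 rose and none fell, against 10.9% and 5.20% of all features, with a median of 1.12. Idi1, an isomerase of the isoprenoid pathway, stood at 1.29, 1.09 and 1.64 at rest and at 3.55, 3.48 and 3.47 after stimulation. Its groups did not overlap (change 2.16, SE 0.20, limma adjusted p = 9.09e-05). Sqle and Mvd, enzymes of the same pathway, rose by 1.86 and 1.66. Fasn, the fatty acid synthase gene, had a change of 0.13 and the regulator Srebf1 of -0.04, and neither was called.

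Energy metabolism rose in part. Of 23 tested glycolysis and hypoxia genes 11 rose and 1 fell, with a median of 1.00. Vegfa, a hypoxia-induced growth factor gene, rose by 2.83, although only 1 resting array was well above background. Tpi1 and Pgk1, enzymes of glycolysis, rose by 1.80 and 1.71. The glucose transporter gene Slc2a3 fell by 1.04. Of 23 tested genes of oxidative phosphorylation 13 rose and none fell, with a median of 0.74. Ndufa4, Cox5a and Cox5b, subunits of the respiratory chain, rose by 1.27, 1.23 and 1.14. This count was 7 without knockout resting replicate 1, knockout resting replicate 2 or knockout stimulated replicate 1, and it was 6, beside 1 that fell, with quantile normalization, 3 without the filter and 1 with median scaling. Of 23 tested MYC and ribosome biogenesis genes 8 rose and none fell, with a median of 0.62, and 5 were called without knockout resting replicate 2 or without knockout stimulated replicate 1. Ncl, encoding nucleolin, and Odc1 and Srm, enzymes of polyamine synthesis, rose by 1.25, 1.41 and 1.25. Mycn was not well above background on any resting array and was at least 4.17-fold higher after stimulation, with measured means of -4.30 and -0.48 (limma adjusted p = 0.000659). Myc itself stood at 1.80 ± 0.06 and 1.60 ± 0.34 (SD, n = 3 each) and was not called (limma adjusted p = 0.757).

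The list of linker histone, HP1 and HMG genes also holds Sub1, which encodes PC4. Of its 13 tested genes 10 rose, Sub1 among them, against 10.9% of all features, with a median of 1.56. H1f5 stood at 2.58, 3.27 and 3.35 at rest and at 5.66, 6.44 and 5.79 after stimulation. The groups were apart by over 2 log2 units, with a change of 2.89 (SE 0.38, limma adjusted p = 0.000563). Hmgb2, a DNA-bending protein gene, rose by 2.68, Cbx5, which encodes HP1 alpha, by 1.88 and H1f1 by 1.83. H1f2 had a change of -1.39 without a call. No member of this list passed the interaction test.

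Genes of the resting state fell. Of 23 tested quiescence and homing genes 12 fell and none rose, against 5.20% and 10.9% of all features, with a median of -0.89 and slide medians of -0.86 and -1.05. The count was 4 with median scaling, 19 with quantile normalization and 20 with the percentile over spots detected on all arrays. Tsc22d3, a glucocorticoid-induced repressor gene, stood at 5.91, 5.86 and 5.40 at rest and at 2.0, 1.61 and 2.03 after stimulation. Its groups lay over 3 log2 units apart, a 14.3-fold fall (change -3.84, SE 0.30, limma adjusted p = 3.53e-05). Txnip, a thioredoxin inhibitor gene, stood at 4.52, 4.54 and 4.28 at rest and at 2.35, 1.73 and 2.16 after stimulation. It fell by 2.37 without overlap, and Dusp1, a MAP kinase phosphatase gene, by 2.77. The homing receptor genes Cxcr5 and Ccr7 fell by 1.29 and 0.94, and the quiescence factor genes Foxo1 and Klf2 by 0.89 and 0.87.

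**Figure D3:**
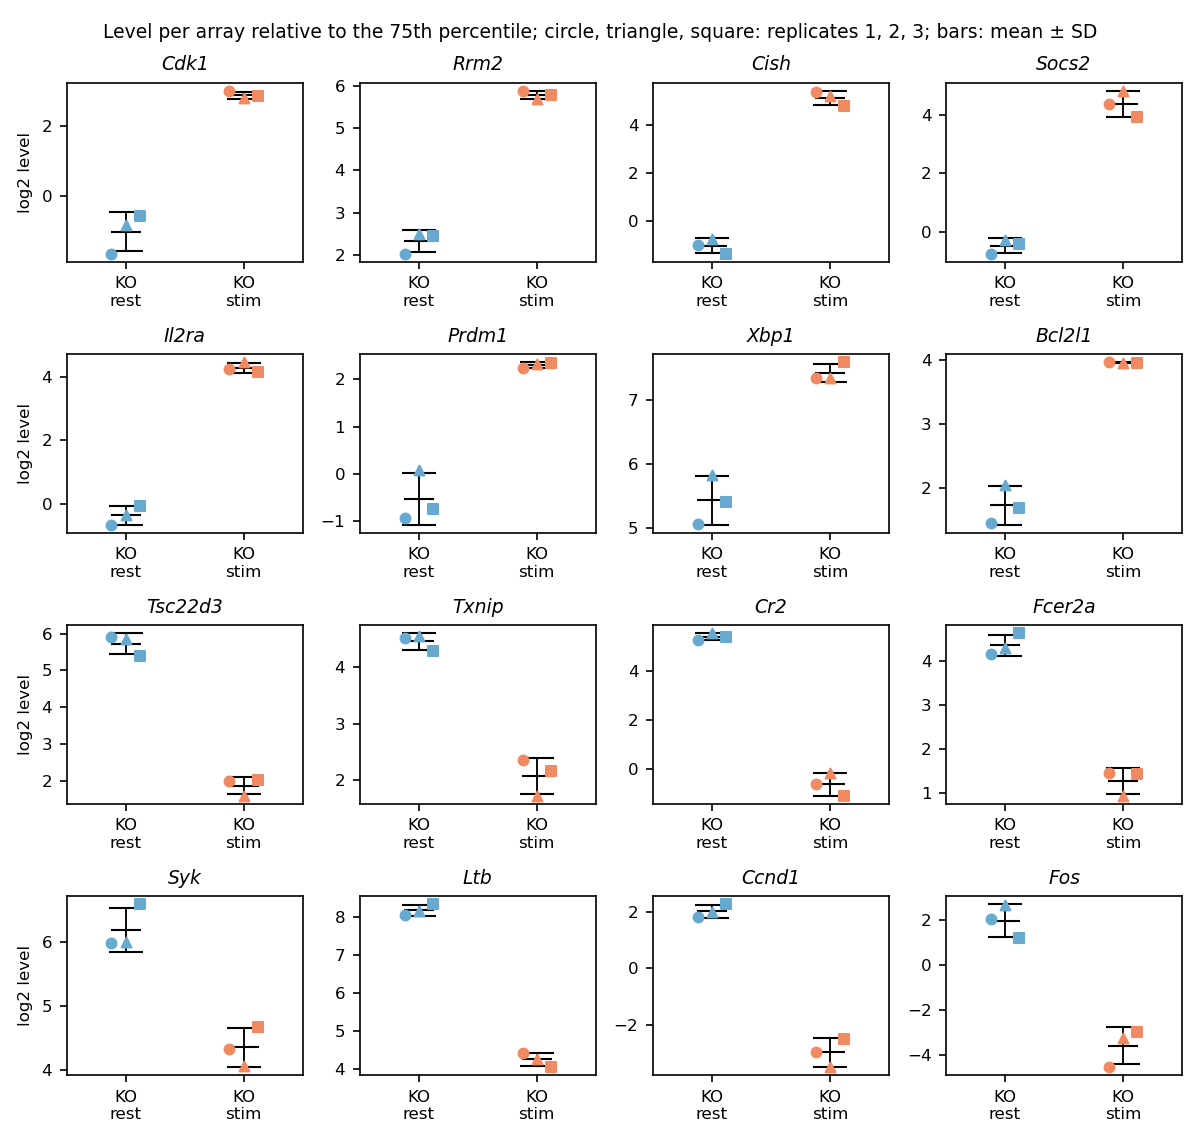
Level of 16 genes on each knockout array (log2 relative to the array's 75th percentile), resting in blue and stimulated in orange. Symbols are replicates 1 (circle), 2 (triangle) and 3 (square), and bars are the mean and SD of 3 arrays. The 16 genes were picked from called ones, so that their groups do not overlap follows from the choice. Of called features 3680 of 3692 do not overlap, and of all features 33.7%. Cish lay at -1.36 to -0.73 at rest and at 4.79 to 5.37 after stimulation.

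Mature B cell genes divided into a part that fell and a part without a call. Of 24 tested genes 10 fell and 1 rose, with a median of -0.66, and 5 were called as falling without knockout resting replicate 3 or without knockout stimulated replicate 2. The count was 3 with median scaling and 16 with quantile normalization. Cr2, encoding the complement receptor CD21, stood at 5.24, 5.52 and 5.38 at rest and at -0.60, -0.14 and -1.07 after stimulation. Its groups lay over 5 log2 units apart, a 63.4-fold fall (change -5.99, SE 0.38, limma adjusted p = 1.99e-05). Fcer2a, encoding the low-affinity IgE receptor CD23, stood at 4.16, 4.28 and 4.62 at rest and at 1.44, 0.93 and 1.43 after stimulation. That is a change of -3.09 (SE 0.23, limma adjusted p = 3.37e-05) with separate groups. Cd72 and Bank1, regulators of receptor signalling, fell by 1.47 and 1.31, and Bach2, a repressor of plasma cell fate, by 1.05. Ms4a1, which encodes CD20, averaged 7.60 and 7.50 and Pax5, the B cell identity factor, 0.34 and -0.34, and neither was called. Cd83, an activation marker, rose by 1.01.

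Marginal zone and Notch genes were mixed. Of 15 tested genes, which include Cr2, 7 fell and 3 rose, with a median of -1.27. A filter on all 12 arrays left 9 members, of which 3 rose and 3 fell. Over the 26 other settings the list median ranged from -1.60 to -0.27. Cd1d1, a lipid antigen presenting molecule gene, stood at 2.69, 3.14 and 3.15 at rest and at 0.54, 0.48 and 1.31 after stimulation. It fell by 2.22 with separate groups. Notch2, the receptor gene, stood at 4.27, 4.30 and 3.93 and then at 2.59, 2.22 and 1.87, and Maml3, a Notch coactivator gene, fell by 2.30 with 1 stimulated array well above background. Cd9, a tetraspanin gene, Rbpj, the Notch effector, and Mzb1, a secretory cochaperone gene, rose by 1.96, 1.41 and 1.08.

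Most called members of the antigen receptor and CD40 lists fell, and most members of both lists were not called. Of 22 tested antigen receptor genes 7 fell and none rose, with a median of -0.43, and the count was 1 with median scaling and 11 with quantile normalization. Syk, the kinase at the receptor, stood at 5.99, 6.01 and 6.60 at rest and at 4.33, 4.05 and 4.67 after stimulation. The groups did not overlap, and Syk fell by 1.85 (SE 0.31, limma adjusted p = 0.00242). Rasgrp3, Fcgr2b, the inhibitory Fc receptor gene, and Lyn, a kinase gene of the receptor, fell by 1.48, 1.35 and 1.08, each with a call lost in 2 other settings. Btk and Plcg2, downstream enzymes, had changes of 0.02 and 0.05. Of 25 tested activation and CD40 genes 9 fell and 1 rose, namely Il2ra, and 14 fell with quantile normalization. Icosl, the ligand of ICOS, fell from 4.25, 4.34 and 4.91 to 1.12, 1.03 and 1.33, a 10.1-fold change without overlap. Slamf1, which was not well above background on any stimulated array, was at least 8.65-fold lower (measured means 0.19 and -4.26, limma adjusted p = 3.37e-05). Nfkb2, Nfkbia and Relb, genes of the NF-kB pathway, fell by 2.29, 2.28 and 1.43. The costimulatory genes Cd86 and Cd80 had changes of 0.32 and -0.64, neither of them called.

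The immediate early list fell in 8 of 16 tested genes and rose in 2, with a median of -1.15. Fos, a subunit of AP-1, stood at 2.03, 2.63 and 1.19 at rest and at -4.52, -3.24 and -2.98 after stimulation, when 1 of the 3 arrays was well above background. Its groups were over 4 log2 units apart, with a change of -5.53 (SE 0.73, limma adjusted p = 0.000655). Zfp36, a factor of mRNA decay, Nr4a1, a nuclear receptor gene, and Egr1 fell by 2.28, 2.03 and 1.92, whereas Batf and Jund rose by 1.19 and 0.79. The count of rising members was 1 without any one of the knockout resting arrays or knockout stimulated replicates 1 and 2. A filter on all 12 arrays left 6 members, of which 3 rose and 2 fell, with a median of 0.42.

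Interferon-stimulated genes went both ways. Of 21 tested genes 8 fell and 4 rose, with a median of -0.51. The antiviral genes Oas2, Ifit3 and Oasl2 fell by 4.0, 3.27 and 2.80, with stimulated levels of Oas2 at -1.72, -3.59 and -0.62 against 1.62, 2.30 and 2.16 at rest. The groups did not overlap, but the stimulated arrays varied widely (SD 1.50). Those that rose were Gbp2, Igtp, Gbp3 and Irf1, genes of the interferon gamma response. Gbp2, a guanylate-binding protein gene, stood at 2.46, 2.44 and 2.48 at rest and at 5.51, 4.62 and 5.60 after stimulation, a change of 2.78 (SE 0.29, limma adjusted p = 0.000157). The count of rising members was 2 without any one of knockout resting replicates 1 and 2 and knockout stimulated replicates 1 and 3, and 2 with quantile normalization or median scaling. A filter on all 12 arrays left 10 members, of which 6 rose and 2 fell, with a median of 0.58. Irf1, at 5.13, 5.33 and 5.31 and then 6.03, 5.66 and 6.06, had the weakest call of them (limma adjusted p = 0.038), lost in 16 of 26 other settings.

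Among 15 tested cytokine and chemokine genes 7 rose and 5 fell. Ltb, encoding lymphotoxin beta, fell from 8.03, 8.14 and 8.32 to 4.42, 4.28 and 4.06. The groups were separated by over 3 log2 units, with a change of -3.91 (SE 0.19, limma adjusted p = 2.91e-06). Il1b fell by 3.14, and the chemokine genes Ccl4 and Ccl17 rose by 3.17 and 2.91, with 2 and 1 of their resting arrays well above background. Of 13 tested BCL2 family genes 4 rose and 2 fell, against 10.9% and 5.20% of all features. The survival gene Bcl2l1, which encodes BCL-XL, stood at 1.46, 2.05 and 1.69 at rest and at 3.96, 3.94 and 3.94 after stimulation. It rose by 2.22 (SE 0.26, limma adjusted p = 0.000297) without overlap. Bmf, a death-promoting member, fell by 2.45 and Bcl2l11, which encodes BIM, rose by 1.59, while Bcl2 had a change of -0.32 without a call. Mcl1 fell by 0.91, a call lost in 7 of 26 other settings.

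Of 18 tested class switch and germinal centre genes 4 rose and 1 fell, against 10.9% and 5.20% of all features. Their median of 0.15 changed sign under quantile normalization. Exo1, a repair nuclease gene, and Msh6, a mismatch repair gene, rose by 2.90 and 1.07, and Bcl6, the germinal centre repressor, fell by 1.21. The number called as rising was 2 without knockout resting replicate 1, knockout stimulated replicate 1 or knockout stimulated replicate 2. Of 21 tested autophagy and lysosome genes 1 fell and none rose, against 16.1% of all features in either direction. That gene was Ctss, a lysosomal protease gene, with a change of -0.95.

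The genes with the largest rises included products of cytotoxic lymphocytes. Gzmb, encoding granzyme B, stood at -3.17, -3.47 and -1.97 at rest and at 5.92, 5.65 and 6.19 after stimulation. The groups lay over 7 log2 units apart, a 444-fold change (8.79, SE 0.41, limma adjusted p = 2.91e-06), but only 1 resting array was well above background. Gzma rose by 6.59 and Gzmc by 5.29, members of a family of similar genes whose probes may not separate them. In control cells Gzmb, Gzma and Gzmc rose by 7.25, 4.16 and 3.36. None of them passed the interaction test (limma adjusted p of 0.355, 0.386 and 0.436). Ifng, which encodes interferon gamma, stood at -2.62, -1.82 and -2.10 at rest, where 2 arrays were well above background, and at 3.09, 3.21 and 3.29 after stimulation. Its change was 5.38 (SE 0.39, limma adjusted p = 3.05e-05), with narrow groups far apart. Thy1, a surface glycoprotein of T cells, rose by 5.07, by 5.55 on slide 1 and 4.12 on slide 2. The other large rises were those of Drc1, a dynein regulator gene of cilia, by 6.24, Nfil3, a bZIP factor gene, by 5.86, and F2r, encoding a thrombin receptor, by 4.72. Drc1 and F2r were each well above background on 1 of the 3 resting arrays. Nfil3 stood at -0.56, -0.38 and -0.36 and then at 5.59, 5.31 and 5.37.

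Markers of T and natural killer cells did not move as 1 block. A filter on all 12 arrays left 2 natural killer and cytotoxic genes, of which 2 rose, and 3 T cell genes, of which 2 rose. Of 9 tested natural killer and cytotoxic genes 5 rose, Gzmb, Gzma, Ifng, Eomes and Nkg7, while Ncr1, Prf1, Tbx21 and Klrb1c were not called, with changes of 0.18, 0.85, -0.05 and 2.02. The summed linear level of the 13 genes on the array was 11.6 to 15.2 times the 75th percentile at rest and 231 to 441 after stimulation. In control cells it was 9.23 to 12.5 and 37.0 to 39.0. No interaction was called for Gzmb or Gzma, and the sums were not tested. Without Gzma and Gzmb the sum of the other 11 was 10.0 to 11.4 at rest and 25.7 to 42.0 after stimulation in knockout cells, and 8.84 to 10.3 and 7.04 to 9.77 in control cells. Of 12 tested T cell genes 3 rose, namely Thy1, Lck and Zap70, the last 2 signalling kinase genes, by 5.07, 2.20 and 2.11. The receptor genes Cd3e, Cd3d and Cd3g had changes of 0.08, -0.21 and 0.10, and Cd4 and Cd8a of -0.46 and -1.35, none of them called. The summed level of the 13 T cell genes on the array was 15.5 to 28.8 at rest and 86.5 to 100 after stimulation. In control cells it was 16.25 to 21.29 and 58.44 to 70.95. Thy1 rose in control cells too, by 5.70, and did not pass the interaction test (limma adjusted p = 0.891). A sum without Thy1 was not taken. The part of other lymphocytes in the rise of these genes was not tested. Fewer cells of a type and less RNA per cell cannot be told apart in RNA of whole samples.

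Markers of other blood cells fell. Some, among them Ppbp, Gp9, Pf4 and Treml1, were well above background on all resting but not all stimulated knockout arrays. The filter therefore favoured them through the group where they are bright. A filter on all 12 arrays left 1 platelet gene, which fell, and 1 dendritic cell gene, which was not called. It left 4 erythroid genes, of which 2 fell and 1 rose, and 4 myeloid genes, of which 3 fell. Of 8 tested platelet genes 5 fell and none rose, and Ppbp, a platelet chemokine gene not well above background on any stimulated array, was at least 34.4-fold lower (measured means 2.18 and -4.42, limma adjusted p = 0.000189). Of 8 tested erythroid genes 5 fell, among them Hbb-bt, a beta globin gene, by 5.02 and the near-identical alpha globin genes Hba-a1 and Hba-a2 by 4.71 and 4.35. Tfrc, the transferrin receptor that dividing cells also use, rose by 1.34. The number of erythroid genes that fell was 2 without knockout resting replicate 2 or knockout stimulated replicate 1 and 3 without knockout resting replicate 3 or knockout stimulated replicate 3. The summed erythroid level ranged from 244 to 780 on the resting and from 17.8 to 59.7 on the stimulated arrays. Of 15 tested myeloid genes 9 fell and none rose, as Csf1r, encoding the macrophage growth factor receptor, from 4.59, 5.30 and 5.14 to 1.94, 2.76 and 2.24. Its groups did not overlap, and the summed myeloid level was 154 to 199 at rest and 47.5 to 55.8 after stimulation. Of 8 tested dendritic cell genes 3 fell, Clec9a by 4.20, Flt3 by 3.63 and Itgax by 2.28, and the summed level was 58.6 to 204 at rest and 43.1 to 126 after stimulation, ranges that overlap. None of 3 tested stromal genes was called, with Pecam1 at -0.53 and Col1a2 at -0.34. Of the 10 B cell markers 2 fell, Fcrla by 1.26 and Cd22 by 1.15, the latter a call lost in 9 of 26 other settings. The count was 0 with median scaling, 7 with quantile normalization and 6 with the percentile over detected spots, and the summed level was 836 to 1015 at rest and 737 to 851 after stimulation. All 10 were well above background on all 6 knockout arrays.

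**Figure D4:**
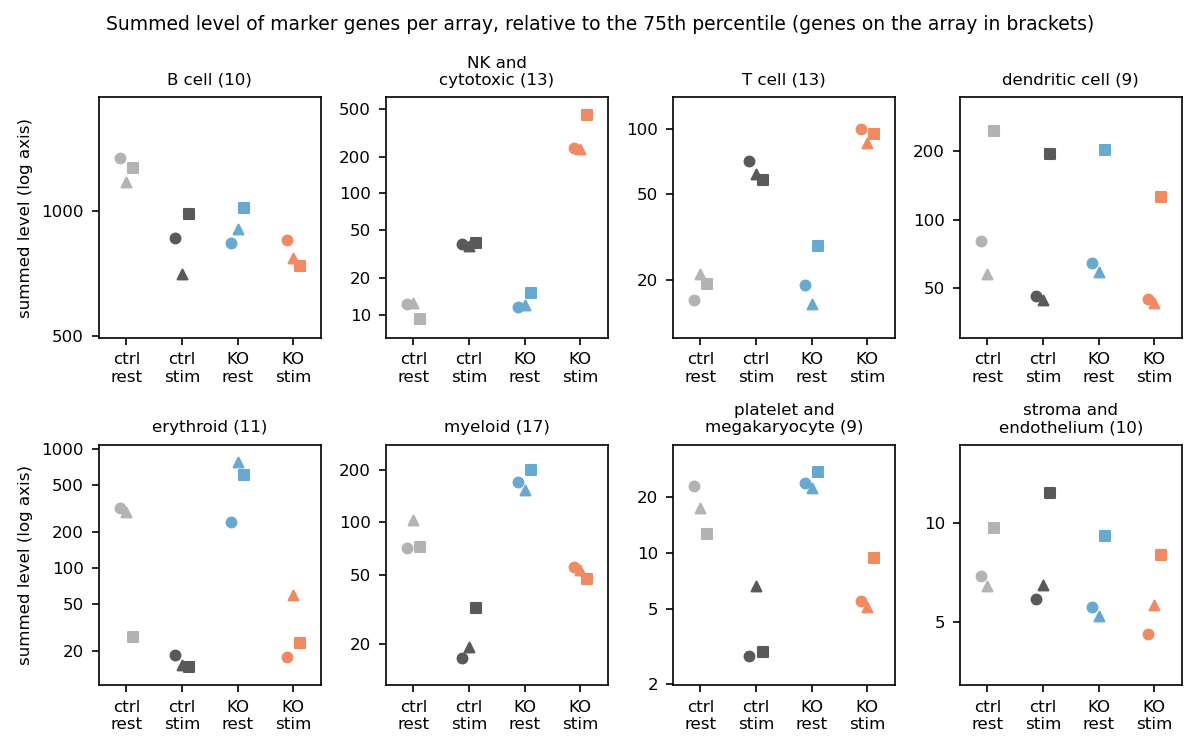
Summed linear level of the marker genes of 8 cell types on each array, in multiples of the array's 75th percentile (log axis), for control (ctrl) and knockout (KO) cells, resting (rest) and stimulated (stim). Symbols are replicates 1 (circle), 2 (triangle) and 3 (square), with the number of marker genes on the array in brackets. In knockout cells the myeloid sum is 154 to 199 at rest and 47.5 to 55.8 after stimulation, and the natural killer and cytotoxic sum is 11.6 to 15.2 and 231 to 441.

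Several of the largest falls lay in genes known from myeloid cells, and Chst1 and Try4 are given beside them as other large falls. None of the genes in this paragraph is a member of the myeloid list. Slpi, encoding a leukocyte protease inhibitor, stood at 4.65, 4.44 and 4.65 at rest and at -2.11, -2.24 and -2.11 after stimulation. The groups were over 6 log2 units apart, a 106-fold change (-6.73, SE 0.32, limma adjusted p = 2.91e-06). Adamdec1, a metalloprotease gene of macrophages, fell by 5.17 and Chst1, a sulfotransferase gene, by 5.29. They were well above background on 1 and 2 of the 3 stimulated knockout arrays. A second probe of Adamdec1 changed by only -0.72. The genes Sirpb1b, Try4 and Ifitm6 were not well above background on any stimulated array and were at least 21.1-fold, 16.7-fold and 12.4-fold lower, with stimulated means of -4.73, -3.97 and -4.58 and resting means of 1.48, 1.19 and 0.72 (limma adjusted p of 0.000189, 0.00528 and 0.000316). Sirpb1b and Try4 belong to families of near-identical genes, so their identity is uncertain. The part of the lower myeloid sum in these falls was not tested.

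A difference between the knockout and the control response was called in 33 features by the limma interaction test, 0.144% of all, with 12 higher in the knockout (0.0522%) and 21 lower (0.0914%), and 2445 features had an unadjusted p under 0.05. Of the 33, 24 were named genes. Ifng rose in both genotypes, by 5.38 in knockout and 1.37 in control cells, an interaction of 4.01 (SE 0.55, limma adjusted p = 0.0333). In control cells Ifng was well above background on 2 of 3 resting and 2 of 3 stimulated arrays. Its stimulated control levels were -0.30, -2.12 and -1.40, so the size of the control rise is uncertain. Tgtp2, Irgm2 and Irf1, genes induced by interferon gamma, and Serpinb9, an inhibitor of granzyme B, rose in knockout and fell in control cells, where Serpinb9 was well above background on 1 of 3 stimulated arrays. Tgtp2 stood at 3.95, 4.08 and 4.33 at rest and at 5.70, 5.22 and 6.36 after stimulation in knockout cells, against control means of 4.32 and 3.0. Its interaction was 2.95 and those of Serpinb9, Irgm2 and Irf1 were 2.42, 2.08 and 1.79. Tgtp2 and Irgm2 belong to families of near-identical genes.

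Bhlha15, which encodes the secretory cell factor MIST1, rose by 2.05 in knockout cells, from 0.49, 1.21 and 0.48 to 2.64, 2.52 and 3.17, and by 5.37 in control cells. The interaction of Bhlha15 was -3.32 (SE 0.43, limma adjusted p = 0.0282), and its knockout arrays did not overlap between rest and stimulation. Jchain fell by 2.71 in knockout cells and averaged 5.54 and 6.72 in control cells without a call (limma adjusted p = 0.0708), an interaction of -3.89 (limma adjusted p = 0.0497). Hid1, a gene of dense core vesicle formation, rose by 1.62 in knockout and 6.06 in control cells, with an interaction of -4.44. Chac1, a target of ATF4, rose by 1.80 in knockout and by 4.72 in control cells, with 1 resting knockout array well above background. Slc7a3, an amino acid transporter gene, also passed the interaction test, but none of the 6 resting arrays measured it above background, so no change is given. These calls rested on few arrays. Limma's interaction test called 0 features when any single one of 7 arrays was left out, the 3 resting control arrays, knockout resting replicates 1 and 2 and knockout stimulated replicates 1 and 2, while 1876 to 2145 features then had an unadjusted p under 0.05. It called 1 feature without control stimulated replicate 1, 4 without knockout resting replicate 3, 12 without knockout stimulated replicate 3 and 130 without control stimulated replicate 2. None of the interactions named here changed sign in the 24 or 25 other settings in which each was tested.

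**Figure D5:**
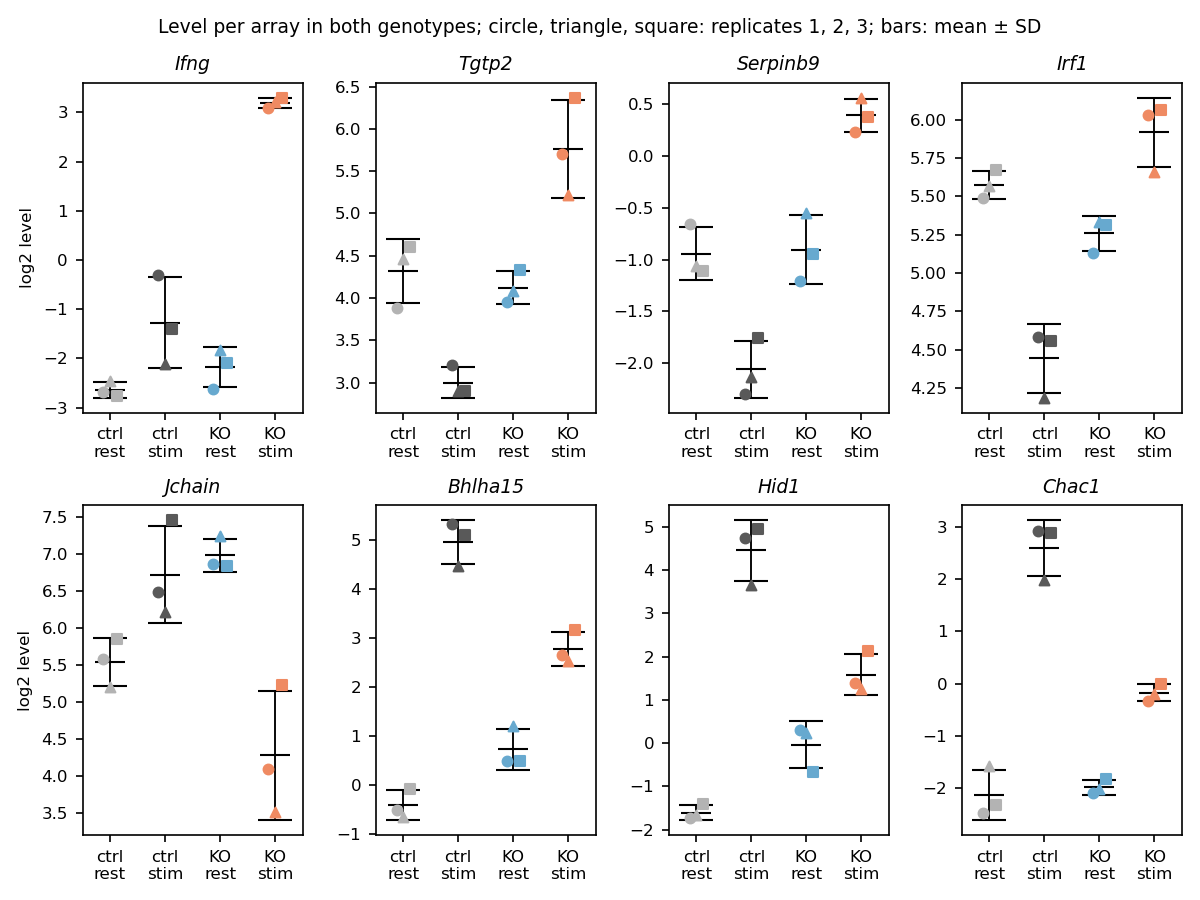
Level of 8 genes with a called interaction on each array (log2 relative to the array's 75th percentile), for control (ctrl, grey) and knockout (KO, coloured) cells, resting (rest) and stimulated (stim). Symbols are replicates 1 (circle), 2 (triangle) and 3 (square), and bars are the mean and SD of 3 arrays. Jchain falls from 6.84 to 7.24 at rest to 3.51 to 5.23 after stimulation in knockout cells, and Bhlha15 reaches 4.47 to 5.32 in stimulated control and 2.52 to 3.17 in stimulated knockout cells.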

How the data were processed

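RNA of mouse splenic B cells was hybridised to Agilent one-colour arrays. The authors' deposited files hold background-subtracted spot intensities of Agilent Feature Extraction, version 10.7.3.1 per the file headers, while the submitters' processing notes name version 9.1. The deposited value table matched these intensities to within 0.497% and was used as an alternative.

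Flagged outlier spots and 3671 control spots were left out, intensities were divided by each array's 75th percentile over the remaining spots, log2 was taken and repeated spots were averaged. A probe entered the test if every array of some group showed it well above background, and the brightest probe stood for a gene. Probe accessions matched RefSeq symbols for 26,413 of 55,681 probes and for 12,295 tested features, and the others stayed unnamed. limma 3.58.1 in R 4.3.3 fitted 4 group means to all 12 arrays (8 residual degrees of freedom), with Benjamini-Hochberg adjusted p-values over all 22,981 features and a threshold of 0.05. The script was tested on simulated data. The number of arrays limits the precision. Of 677 called genes with several probes, 55 had a probe of the opposite sign.

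The gene lists and members were chosen with earlier results of these data known, and lists are described by counts and medians beside all features. Named by rule were Sub1, Cd79a, the 10 largest called changes in each direction without overlap, up to 4 called members of each list (where none was called, 2 others), the 6 largest interactions in each direction and list members with a called interaction. Other genes were chosen after their values were seen. Alternatives were other scalings, background correction, filters, blocks, variance models, a 2-fold minimum and the omission of single arrays. Some genes are not reported here.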

Additional observations from a re-analysis of the deposited data

Results flagged for a closer look

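The stimulation response of 24 named genes differed between knockout and control cells by the limma interaction test. Listed here are 13 of them, those named by the rule above and well above background on at least 1 array of each group. The values are the knockout change minus the control change on the log2 scale. The difference was 4.008 for Ifng, 2.955 for Tgtp2, 2.417 for Serpinb9, 2.079 for Irgm2 and 1.789 for Irf1. Afp, the gene of alpha-fetoprotein, had a difference of 3.246. It fell by 2.37 in control cells and had a change of 0.88 in knockout cells without a call. Zmat1, a zinc finger gene, fell in both genotypes, by 1.16 in knockout and 3.13 in control cells, a difference of 1.979.

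Of these 13 genes, 6 had differences below 0. This split follows from the rule, and of all called features 12 were higher and 21 lower in the knockout. The difference was -4.437 for Hid1, -3.885 for Jchain, -3.32 for Bhlha15 and -2.915 for Chac1. Plcd1, a phospholipase C gene, and Ckb, the brain-type creatine kinase gene, rose by 2.50 and 2.19 in control cells and had changes of -0.87 each in knockout cells without a call. Their differences were -3.37 and -3.062. Afp and Zmat1 were well above background on 1 of 3 stimulated control arrays, and Plcd1 on 1 of 3 resting control arrays. Each of the 13 calls was lost in 10 (Hid1) to 17 (Zmat1) other settings, and none changed sign.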

How the results depend on the processing

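The scaling, the filter and single arrays moved the number of calls. Against 3692 called features (2498 higher, 1194 lower) and 33 called interactions, median scaling gave 1683 (1080 and 603) and 10, no filter 1606 (1067 and 539) and 0, and slide 1 alone 1543 (1061 and 482) and 0. At an unadjusted p under 0.05, limma's interaction test had 2868 features without the filter and 2262 on slide 1. The features called lower were 2174 with quantile normalization and 3148 with the percentile over spots detected on all arrays. A 2-fold limit left 1597 higher. Called interactions were 80 with quantile normalization, 317 with the percentile over detected spots, 119 with normexp, 266 with a filter on all 12 arrays, 81 with the slide as a block, 335 with a trended robust variance and 126 with array weights. The cause was not tested. With a filter on all 12 arrays 77.8% of calls were higher.

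Leaving out each array in turn gave 2410 to 4205 calls, 1519 to 2770 higher, 748 to 1435 lower (748 without knockout resting replicate 2) and 0 to 130 interactions. The replicate number as a block gave 4682 calls and 33 interactions. Knockout arrays of the same number deviated together with correlations of 0.003, 0.15 and 0.39, the last for replicate 3, which lay on slide 2. Arrays of unlike numbers gave -0.29 to 0.18. With so few arrays these values cannot settle whether the numbers are pairs. The labels do not say, so no pairing was used in the main fit.

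Of 130 called named genes 94 kept their call in every one of the 25 or 26 settings that tested them, 36 lost it in some and none reversed. List medians changed sign for class switch (-0.03 with quantile normalization, -0.18 over detected spots), BCL2 (-0.09), autophagy (-0.22 and -0.23, and -0.07 without knockout resting replicate 1) and T cell genes (-0.25, and -0.18 and -0.08 without knockout resting replicate 2 or knockout stimulated replicate 3). With the filter on all 12 arrays they did so for cytokines (-0.48), immediate early (0.42), interferon (0.58) and stromal genes (0.05). With median scaling the count of rising genes was 8 in place of 13 for G1, 2 in place of 8 for MYC, 7 in place of 13 for the unfolded protein response, 11 in place of 20 for cholesterol and 6 in place of 11 for glycolysis. The count of falling cytokine genes dropped from 5 to 3 without any one of the knockout resting arrays or knockout stimulated replicates 1 or 2. That of rising BCL2 genes dropped from 4 to 2 without any one of knockout resting replicates 1 and 2 and knockout stimulated replicates 1 and 3. One B cell marker in place of 2 fell without any one of control resting replicate 3, the 3 knockout resting arrays and knockout stimulated replicates 1 and 2. Signal over background limits all genes named with fewer than 3 arrays well above background.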
